A study of Mus musculus with 6 samples.

Results

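Peak-dense gene loci are genes to which an unusually large number of open chromatin regions (peaks) is assigned. The members were chosen by the number of rows that the authors' deposited table of all peaks gives to each gene name. All peaks of genes with 20 or more rows were taken, and names made only of digits were left out. This gave 875 peaks at 37 genes, out of 70494 peaks (1.24%) and 26773 gene names, where the median gene held 2 peaks and 10662 genes held 1. Peaks found in either treatment add to a gene's row count, so the libraries compared here also chose the members. Shares and fold changes of the members are therefore descriptions, with no test of the members against other peaks.

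Accessibility was measured by ATAC-seq, which marks open chromatin by the insertion of a transposase. Mouse epiblast stem cells of the line 7H (a hybrid of BL6 and 129), in which OTX2 carries a degradation tag and EGFP, were turned into definitive endoderm first for 16 h in CHIR (3 uM) plus Activin A (40 ng/ml), and next for 24 h in LDN (100 nM) plus Activin A (100 ng/ml). Both groups carry the tagged allele, and both are the same 1 line. One group received DMSO for 24 h from the primitive streak stage (3 libraries), and the other received dTAG13, a compound that directs the tagged OTX2 to degradation (3 libraries), each from 50000 sorted live cells. Since these 3 are technical replicates by the design text, the authors' p-values measure the spread between repeated libraries. The table gives 1 mean over all 6 libraries per peak, with the log2 fold change of dTAG13 over DMSO and its standard error (SE). Values per library and sequencing depth are not used here, and a mean for each group was computed from the mean and the fold change. Of the 7 definitive endoderm markers, 7 had a promoter peak, with a summed mean count of 20.7 to 99 normalized counts per gene. Promoter peaks were also present at 3 of 3 neuroectoderm markers (16.8 to 26.7), at 5 of 6 primitive streak and mesoderm markers (up to 62.4) and at 3 of 4 markers of epiblast and pluripotent cells (up to 47.9, Nanog without one). For visceral endoderm 1 of 4 markers had such a peak (10.6). The part of other cell types in the results was not tested.

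Very long genes and gene deserts can hold many distal regulatory elements, called enhancers, which transcription factors open or keep open. OTX2 is a homeodomain factor of the anterior epiblast, streak and endoderm, and its domain reads the core sequence GGATTA, which on the opposite strand is written TAATCC. Enhancers far from a start site are often assigned to a gene only because it is the nearest, so a locus named for a gene need not act on that gene.

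The sequences shown first are 7 members called lower in dTAG13 whose central 200 bases hold the OTX core. They were selected after their values were seen, to show where the core lies, and are read from the forward strand of GRCm38.p6 (mm10), with the core in capitals.
Efna5 intron 1 (chr17:62752619-62752818): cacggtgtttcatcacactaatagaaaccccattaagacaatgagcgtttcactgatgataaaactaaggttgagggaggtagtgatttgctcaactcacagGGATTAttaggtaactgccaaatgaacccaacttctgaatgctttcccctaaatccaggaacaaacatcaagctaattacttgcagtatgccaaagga
Gm26834 downstream (chr16:29860415-29860614): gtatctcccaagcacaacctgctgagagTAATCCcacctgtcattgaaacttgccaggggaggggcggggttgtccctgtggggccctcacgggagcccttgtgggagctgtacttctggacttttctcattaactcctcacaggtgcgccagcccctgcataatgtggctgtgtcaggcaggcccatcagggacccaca
Tox3 intron 1, with consensus (chr8:90323868-90324067): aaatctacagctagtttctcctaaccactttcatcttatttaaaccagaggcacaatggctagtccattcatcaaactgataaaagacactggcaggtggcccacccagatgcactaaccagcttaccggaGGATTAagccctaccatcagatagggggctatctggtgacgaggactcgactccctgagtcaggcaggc
Magi1 intron 1 (chr6:94012089-94012288): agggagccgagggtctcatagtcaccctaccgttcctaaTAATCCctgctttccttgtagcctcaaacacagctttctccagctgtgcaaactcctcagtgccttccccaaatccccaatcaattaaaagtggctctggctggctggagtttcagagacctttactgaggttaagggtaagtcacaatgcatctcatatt
Dab1 intron 1 (chr4:103699718-103699917): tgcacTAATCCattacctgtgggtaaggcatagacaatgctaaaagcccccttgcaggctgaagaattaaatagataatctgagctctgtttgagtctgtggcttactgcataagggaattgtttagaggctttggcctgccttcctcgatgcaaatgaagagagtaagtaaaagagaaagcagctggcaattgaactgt
Rarb locus (chr14:16716237-16716436): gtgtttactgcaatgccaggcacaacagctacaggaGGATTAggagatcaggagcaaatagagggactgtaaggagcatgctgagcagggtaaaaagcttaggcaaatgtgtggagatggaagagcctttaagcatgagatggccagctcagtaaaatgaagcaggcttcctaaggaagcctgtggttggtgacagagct
2610028E06Rik downstream (chr4:125843534-125843733): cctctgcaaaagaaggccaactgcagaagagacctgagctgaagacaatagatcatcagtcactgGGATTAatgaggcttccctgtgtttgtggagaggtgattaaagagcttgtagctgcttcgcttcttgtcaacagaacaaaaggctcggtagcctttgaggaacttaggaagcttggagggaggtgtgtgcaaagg
Each of these windows held the core 1 time, at a different distance from the centre and on either strand. The loss of signal was not limited to such windows. Among the 4 called peaks with the smallest p, 3 had no copy of the core, and those at Robo1 and Tox3 are shown for contrast.
Robo1 locus (chr16:72636061-72636260): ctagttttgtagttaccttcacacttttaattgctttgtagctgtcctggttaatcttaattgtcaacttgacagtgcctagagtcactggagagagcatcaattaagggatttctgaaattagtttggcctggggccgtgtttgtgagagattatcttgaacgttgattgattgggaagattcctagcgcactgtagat
Tox3 intron 1, without consensus (chr8:90332683-90332882): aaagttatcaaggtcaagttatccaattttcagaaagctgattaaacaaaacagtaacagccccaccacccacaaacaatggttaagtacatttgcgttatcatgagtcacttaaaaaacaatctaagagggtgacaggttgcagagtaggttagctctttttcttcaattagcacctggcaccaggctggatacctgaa
The windows of the 14 members called higher in dTAG13 held no OTX core. A pair is shown with the TEAD core GGAATG, on the opposite strand CATTCC, in capitals. TEAD factors bind DNA together with YAP.
Trabd2b intron 2 (chr4:114531071-114531270): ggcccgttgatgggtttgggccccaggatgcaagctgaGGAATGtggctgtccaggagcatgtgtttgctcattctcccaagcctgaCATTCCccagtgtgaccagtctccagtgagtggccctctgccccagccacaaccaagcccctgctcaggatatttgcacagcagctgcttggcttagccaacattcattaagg
Pard3 intron 2 (chr8:127243984-127244183): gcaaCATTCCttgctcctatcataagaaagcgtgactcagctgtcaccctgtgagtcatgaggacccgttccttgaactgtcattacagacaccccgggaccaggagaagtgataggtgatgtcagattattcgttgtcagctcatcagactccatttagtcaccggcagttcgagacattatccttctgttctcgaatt
Both cores were searched on both strands. The reversed OTX sequence ATTAGG served as a control of equal base composition, and 22 of the 108 members with the OTX core also held it. In the Efna5, Magi1 and Rarb windows it shares letters with the core, so the control is not independent of the core.

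The 37 loci lay on 15 chromosomes. Pde4d, a cAMP phosphodiesterase gene, held 48 peaks and Kalrn, which encodes a guanine nucleotide exchange factor, held 32. Gse1 and Tbc1d22a held 28 each, and 2610028E06Rik, Dab1 and Tns3 held 27 each. At the edge of the rule, 9 genes had 20 rows, among them Adgrb1, Frmd4b, Gramd1b, Itpr1, Jarid2 and Myo10, with a median log2 fold change of -0.25 over their 180 peaks. Just outside, 7 genes had 19 rows, among them Abr, Arhgap26, Fgfr2, Lrig3, Prdm16 and Rreb1, with a median of -0.38 over 133 peaks. The pooled medians on either side of the threshold were thus alike in sign, but single genes differed. Their medians ran from -1.81 (Tox3) to 0.58 (Myo10) inside, and from -1.20 (Spock1) to 0.08 (Rreb1) outside.

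Peak-dense loci were mostly long genes. The 33 protein-coding genes had a median length of 388 kb, and 31 of them were longer than 100 kb, against a median of 23.5 kb over 15662 protein-coding genes with a peak. The span from the first to the last peak had a median of 434 kb and ran from 147 kb at Gm26834 to 1646 kb at Nrxn3. Density differed accordingly, from 1.58 peaks per 100 kb at Nrxn3 to 14.9 at Gm26834. By position, 637 members lay within the gene, 158 upstream and 80 downstream.

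The 4 non-coding loci can be placed by the nearest protein-coding start, which for them is always that of another gene. Of the 25 peaks of Gm10655, a short lincRNA gene, 24 had as nearest protein-coding start that of Tle3, which encodes a Groucho corepressor. Of the 23 peaks of Gm25258, a small nuclear RNA gene, 22 were nearest to Bmp2, a BMP ligand gene. At Gm26834, 16 of 22 peaks were nearest to Opa1 and 6 to Hes1, a NOTCH target gene. At 2610028E06Rik, 21 of 27 peaks were nearest to Csf3r and 6 to Grik3.

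Members differed from the 69619 other peaks in kind. The authors' annotation placed 56.7% of them in introns (others 25.7%), 24.7% between genes (31.3%) and 17.4% at promoters (39.4%). They were slightly weaker, with a median mean count of 6.28 against 7.34, and slightly poorer in GC, with 51.0% against 53.5% in the central 200 bases. More of them were found only in the pooled DMSO peak list. That share was 48.2% (422 peaks) against 40.0% of other peaks, while 39.8% (348) stood in both lists and 12% (105) in the dTAG13 list only. By kind of peak the DMSO-only shares lay closer together. They were 52.2% against 50.2% in introns, 53.7% against 48.8% between genes and 28.3% against 26.1% at promoters. Members were weaker only at promoters, with a median mean count of 8.81 against 12.8. In introns it was 5.66 against 5.54, and between genes 6.49 against 5.68. Median GC was lower in members in introns and at promoters, and higher between genes.

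In the fold changes as deposited, accessibility at these loci was lower in dTAG13 more often than higher, a balance that did not hold after centring within classes of GC content. By the authors' adjusted p under 0.05 (DESeq2 column names; called below), 64 of 854 tested members changed, or 7.49% against 5.26% of all tested peaks. Of these, 50 were lower in dTAG13 (5.85%, 95% Wilson interval 4.47 to 7.64, against 3.79% of all) and 14 were higher (1.64%, interval 0.979 to 2.73, against 1.47%). The share called higher was thus near that of all peaks. The intervals treat peaks as independent, which peaks of a locus are not, so they are no test against all peaks. At an unadjusted p under 0.05, 157 members were lower and 59 higher (24.7% in all), against 8965 lower and 4938 higher of all peaks (19.7%). Within kinds of peak, 6.25% of intronic members were lower against 5.58% of other intronic peaks, 8.53% against 5.08% between genes, and 1.32% against 1.59% at promoters. The gene groups below are set beside all peaks, of which 39.1% were at promoters, against 6.19% to 23.7% in the groups. Other intronic peaks (5.58% lower, 1.74% higher) and other peaks between genes (5.08% and 1.67%) are nearer to them in kind.

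The balance of directions depended on how fold changes were centred. As deposited, 78.1% of called members were lower, against 72.1% of the calls over all peaks. With fold changes centred on the median of all peaks (-0.18), 38 members were lower and 24 higher (61.3% lower, all peaks 51.2%). Centred on peaks of both lists (median 0.09), 58 were lower and 9 higher (86.6% lower, all peaks 80.0%). Centred within deciles of GC content, whose medians ran from -0.75 in one decile to 0.04 in another, 26 were lower and 28 higher (48.1% lower, all peaks 40.9%). In that last setting 3.04% of members were lower against 2.07% of all peaks, and 3.28% were higher against 2.99%. Of the 64 calls, 34 held under all 3 centrings, at 21 of the 29 loci with a call. None held at Gm10655, Gm25258, Itpr1, Mast4, Nckap5, Palld, Tns3 and Ulk4, and all held at Kalrn, Magi1, Myo10, Prickle1, Tox3 and Trabd2b, among the loci named here.

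Many calls rested on low counts in one of the groups. In 28 of the 50 lower members the computed dTAG13 mean was under 3 normalized counts per library, and in 9 of the 14 higher members the DMSO mean was. For such peaks the fold change is given as a lower bound against that floor of 3, with size factors near 1 assumed. Only 25 of the lower and 5 of the higher calls had a mean count of at least 10.

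**Figure D1:**
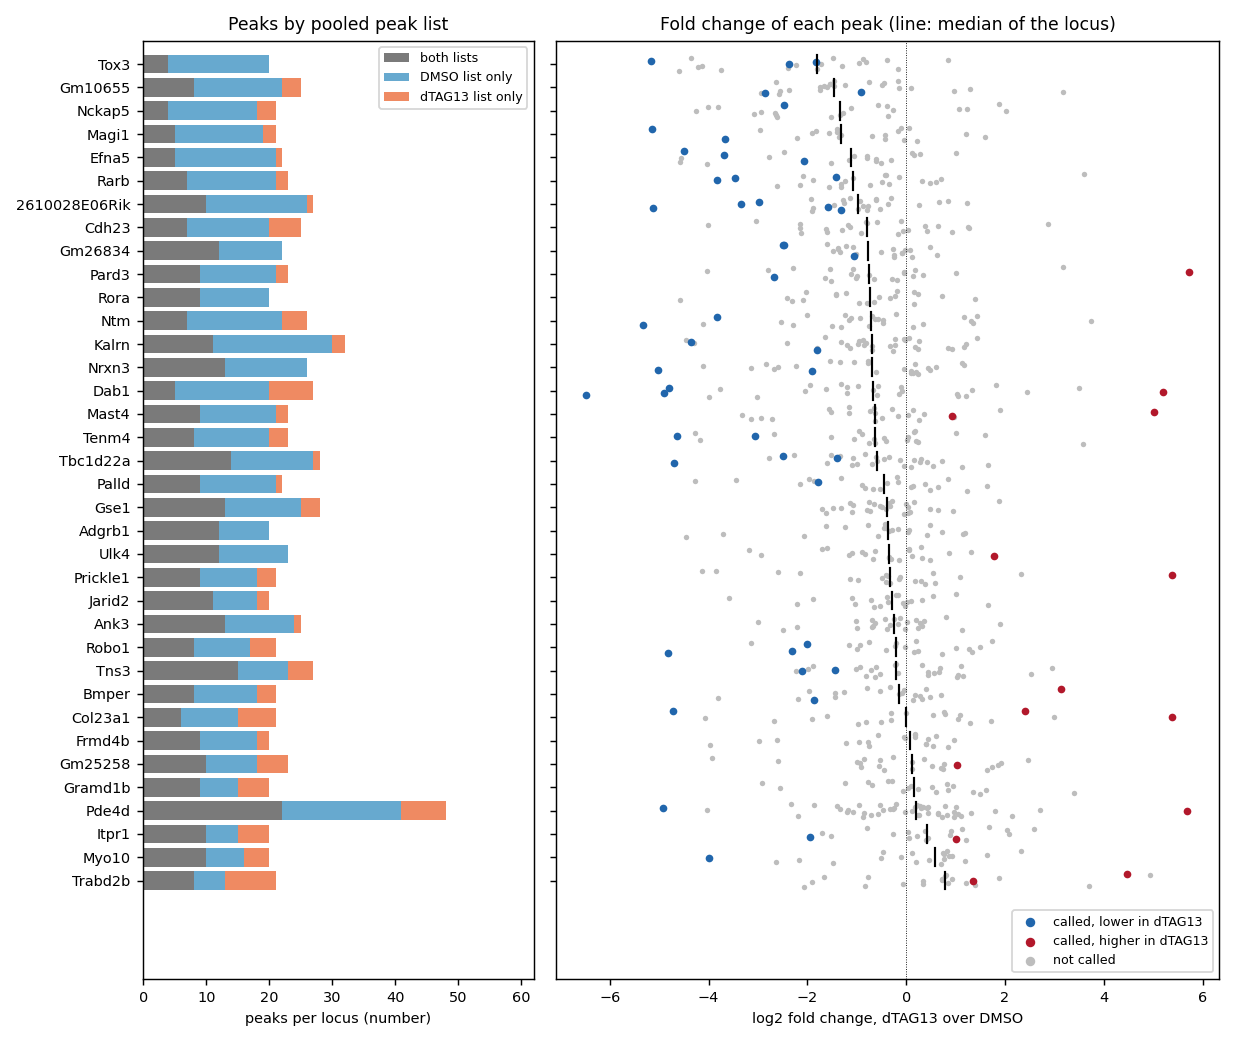
Peaks of 36 of the 37 loci, ordered by median log2 fold change. Left, number of peaks per locus found in both pooled lists, in the DMSO list only or in the dTAG13 list only; right, log2 fold change (dTAG13 over DMSO) of each peak, with calls at an adjusted p under 0.05 in colour and a line at the median of each locus. Medians run from -1.81 at Tox3 to 0.78 at Trabd2b, and over all 37 loci 30 medians are below 0 as deposited (23 after centring within GC deciles).

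Calls were spread over many loci. A lower call occurred at 24 loci and a higher call at 11, with both directions at 6 (Pde4d, Dab1, Pard3, Bmper, Col23a1 and Itpr1). No call was made at 8 loci, namely Gse1, Ank3, Cdh23, Adgrb1, Jarid2, Gramd1b, Frmd4b and Rora. The locus of 2610028E06Rik had 5 lower calls, and 7 loci had 3 (Tbc1d22a, Dab1, Rarb, Efna5, Gm26834, Robo1 and Tox3). These 8 loci held 26 of the 50 lower calls. Mast4, Trabd2b and Col23a1 had 2 higher calls each.

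Adding up the computed group means of all peaks of a locus gave less signal in dTAG13 at 28 of 37 loci. The ratio of dTAG13 to DMSO was 0.433 at Tox3, 0.509 at 2610028E06Rik, 0.555 at Gm10655, 0.595 at Efna5 and 0.626 at Rarb. It was above 1 at 9 loci, with 1.50 at Trabd2b, 1.35 at Itpr1, 1.26 at Myo10 and 1.2 at Pde4d. Over all members the log2 ratio of the sums was -0.24, against -0.05 over all other peaks. At 22 loci the log2 ratio was below -0.18, the median fold change of all peaks. That median weighs each peak equally and is not a ratio of sums, so the 2 measures are unlike. These sums carry no error, since values per library are not used.

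**Figure D2:**
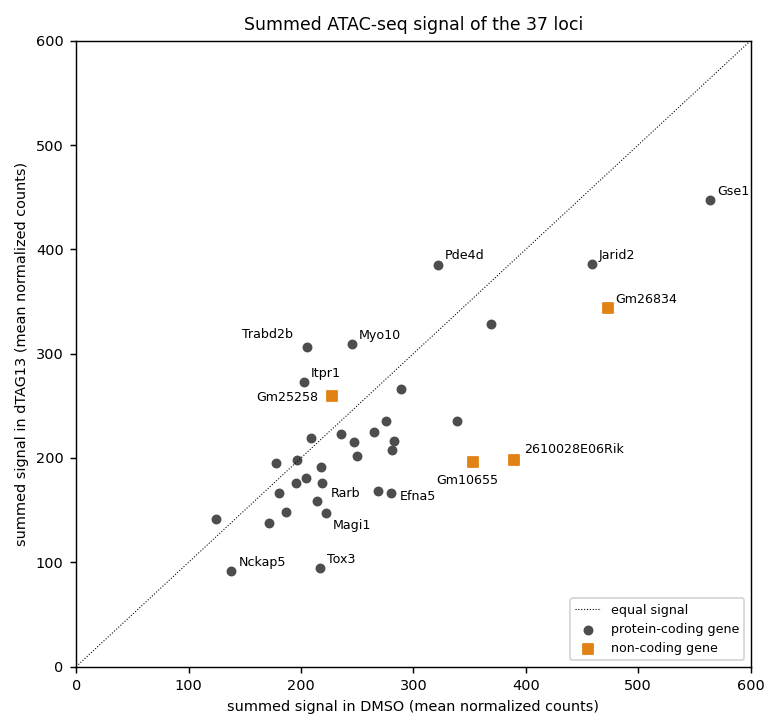
Summed mean normalized counts of all peaks of a locus in DMSO (x axis) and dTAG13 (y axis), 1 point per locus, with a dotted line at equal signal. There are 28 loci under the line; Tox3, Gm10655 and 2610028E06Rik lie farthest below it in ratio, and Trabd2b lies farthest above.

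Among the 7 genes for cell adhesion and axon guidance, 12 of 158 tested peaks were lower (7.59%, all peaks 3.79%) and 0 higher (all peaks 1.47%). Of the 12 calls 6 held under all 3 centrings. Robo1, which encodes a receptor for SLIT guidance cues (chromosome 16, 72308306 to 73046095), held the member with the smallest p. This peak (chr16:72635964-72636358), which the authors' annotation calls intergenic although it lies inside the GENCODE gene, had a computed mean of 46.9 normalized counts in DMSO and 9.39 in dTAG13. The signal was 4.99-fold lower, or -2.32 on the log2 scale in the authors' deposited table (SE 0.41, adjusted p = 2.3e-05). The other 20 peaks of Robo1 included 2 more lower calls, 4.01-fold and at least 1.98-fold lower, both lost after the fold changes of the authors' deposited table were centred within GC deciles (adjusted p = 0.19 and 0.082). The median of the locus was only -0.21 and turned positive (0.41) when centred within GC deciles. The change at Robo1 was thus seen at single peaks and not across the locus.

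Efna5, which encodes an ephrin ligand, showed a broader change. Of its 22 peaks 18 had a negative fold change and 16 were in the DMSO list only, with a median of -1.11. The intron 1 peak shown above (chr17:62752421-62753016) went from 45.9 to 10.9 normalized counts, and the authors' deposited table gives -2.07 on the log2 scale (SE 0.38, adjusted p = 6.1e-05). A peak 60.3 kb upstream of the start, also with the OTX core, was at least 5.84-fold lower. The strongest peak of the locus, at the promoter, had 51.5 counts in DMSO and 63.0 in dTAG13 and was not called (adjusted p = 0.53 in the authors' deposited table). The promoter peak and the called distal peaks thus differed in sign, a difference that was not tested.

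Nrxn3, a neurexin gene, had 2 lower calls among 26 peaks, and its strongest peak, an internal promoter, had 76.8 and 87.5 counts and no call. Ntm, which encodes the adhesion molecule neurotrimin, had 2 lower calls among 24 tested peaks. At Tenm4, a teneurin gene, the lower call of smallest p went from 26 to 3.12 counts, which the authors' deposited table gives as -3.06 on the log2 scale (SE 0.65), and a second call lay right beside it. None of the 23 windows at Tenm4 held the OTX core. Cdh23, a cadherin gene of sensory hair cells, had no call, and its peak of smallest p had 1.04 counts in DMSO and 7.57 in dTAG13 (adjusted p = 0.10 in the authors' deposited table).

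Among nuclear receptors and chromatin factors 6 of 110 tested peaks were lower (5.45%, all peaks 3.79%, other intronic peaks 5.58%) and 0 higher (all peaks 1.47%), and 4 of the 6 held under all 3 centrings. A negative fold change was found at 77.5% of the 111 peaks, against 58.2% of all peaks. Tox3, which encodes an HMG-box protein (chromosome 8, 90247040 to 90348343), had the lowest summed ratio of the 37 loci. Of its 20 peaks 19 were negative and 16 were found only in the DMSO list, with none in the dTAG13 list only. The locus median was -1.81 as deposited and -1.58 after centring within GC deciles. Both intron 1 peaks shown above were called: the one without the core went from 52.1 to 14.7 counts (per the authors' deposited table -1.83 on the log2 scale, SE 0.34, adjusted p = 6.7e-05). The one with the core went from 26.1 to 5.04 counts (per the authors' deposited table -2.37 on the log2 scale, SE 0.55, adjusted p = 0.0023). A small promoter peak, 0.57 kb upstream of the start, was at least 2.53-fold lower.

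Rarb, the gene of retinoic acid receptor beta, had 3 lower calls among 23 peaks and a median of -1.07. Its call of smallest p went from 49.3 to 18.3 counts (per the authors' deposited table -1.43 on the log2 scale, SE 0.34, adjusted p = 0.0030), and was no longer called after centring within GC deciles (adjusted p = 0.24). The peak with the OTX core, 103 kb from the start, was at least 5.67-fold lower. Rora, the gene of another nuclear receptor, had a negative fold change at 15 of 20 peaks and no call. Jarid2, which encodes a subunit of Polycomb repressive complex 2, held the strongest of all members, an intron 4 peak with 188.4 counts in DMSO and 163.0 in dTAG13, not called. Gse1 had 28 peaks and no call, although its summed signal went from 563.6 to 447.3 normalized counts and its peak of smallest p just missed the threshold (adjusted p = 0.053 in the authors' deposited table).

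Non-coding loci had 10 lower calls and 1 higher call among 95 tested peaks (10.5% and 1.05%, all peaks 3.79% and 1.47%), and 5 lower calls held under all 3 centrings. At 2610028E06Rik (chromosome 4, 125887851 to 125922417), 23 of 27 peaks were negative and the 5 called peaks lay inside and downstream of the gene, 4 of them with the OTX core. The peak shown above went from 24.0 to 2.36 counts and was at least 7.99-fold lower. Another, 176 kb from the start, went from 26.9 to 0.774 counts and was at least 8.96-fold lower. At Gm26834, a pair of called downstream peaks lost signal: one was 5.57-fold lower, from 38.9 to 6.97 counts, and the other, with the OTX core, was 5.65-fold lower, from 33.1 to 5.86. The strongest peak of Gm26834, 10.6 kb upstream of its start, had 84.2 and 88.4 counts and no call. At Gm10655 the strongest peak was itself called, with 68.8 counts in DMSO and 36.4 in dTAG13 (per the authors' deposited table -0.92 on the log2 scale, SE 0.26, adjusted p = 0.014), and not after centring on the median of all peaks (adjusted p = 0.058). Gm25258 had the only higher call of these loci, from 19.6 to 40.1 counts, lost when the fold changes of the authors' deposited table were centred on peaks of both lists (adjusted p = 0.059).

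Regulators of polarity, WNT and BMP signalling showed both directions, with 4 lower and 5 higher calls among 103 tested peaks (3.88% and 4.85%, all peaks 3.79% and 1.47%), of which 2 lower and 5 higher held under all 3 centrings. Trabd2b, which encodes a membrane protease that inactivates WNT ligands, was the locus with the highest summed ratio. Of its 21 peaks 15 were positive, with a median of 0.78 (0.69 to 1.03 over the 3 centrings), and 8 were found only in the dTAG13 list. The peak 0.797 kb upstream of its start went from 16.6 to 42.5 counts (a value of 1.36 in the authors' deposited table on the log2 scale, SE 0.34, adjusted p = 0.0062). The intron 2 peak shown above, with 2 copies of the TEAD core, went from 0.526 to 11.6 counts and was at least 3.88-fold higher. At Prickle1, a planar cell polarity gene, 1 intergenic peak was higher (at least 2.00-fold). Pard3, which encodes an apical polarity scaffold, had a higher call in intron 2 (at least 2.57-fold) and a lower call in intron 1 (at least 4.97-fold). Magi1, which encodes a scaffold of cell junctions, had 2 lower calls, both with the OTX core, and the one shown above was at least 6.55-fold lower. Bmper, whose product binds BMPs, had 1 call in each direction.

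Signalling enzymes and adaptors had 12 lower and 6 higher calls among 237 tested peaks (5.06% and 2.53%, all peaks 3.79% and 1.47%), of which 7 lower and 2 higher held under all 3 centrings. Introns held 68.0% of the 241 peaks of this group, and other intronic peaks were lower in 5.58% and higher in 1.74%. At Dab1, an adaptor of the reelin pathway, the intron 1 peak shown above had the most negative fold change of all called members, which the authors' deposited table gives as -6.48 on the log2 scale (SE 1.27, adjusted p = 0.00016). It went from 19.2 to 0.214 counts, at least 6.39-fold lower. Dab1 had 2 more lower calls and 1 higher call, each with a mean count under 4. Pde4d, in spite of its 48 peaks, had 1 lower and 1 higher call, the latter from 0.285 to 14.7 counts (at least 4.89-fold). Its median was 0.19, and 26 of 48 peaks were positive. Kalrn had 2 lower calls among 32 peaks, the larger by signal going from 37.2 to 10.6 counts. Tbc1d22a, a gene with a Rab GTPase-activating domain, had 3 lower calls among 28. At Mast4, a kinase gene, an internal promoter went from 26.9 to 51.1 counts (a value of 0.92 in the authors' deposited table on the log2 scale, SE 0.30, adjusted p = 0.039), a call lost when centred on peaks of both lists (adjusted p = 0.068), and 15 of 23 peaks were negative. Itpr1, a calcium channel gene of the endoplasmic reticulum, had 15 of 20 peaks positive, with 1 higher and 1 lower call. Ulk4, a gene of the ULK kinase family, had 1 higher call.

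Cytoskeleton and matrix genes had 6 lower and 2 higher calls among 151 tested peaks, or 3.97% and 1.32%, against 3.79% and 1.47% of all peaks. Of other intronic peaks 5.58% were lower and 1.74% higher, and introns held 69.2% of the 156 peaks of this group. Of the calls in this group 1 lower and 2 higher held under all 3 centrings. Tns3, a tensin gene of focal adhesions, had 2 lower calls, both lost after the fold changes of the authors' deposited table were centred within GC deciles (adjusted p = 0.084 and 0.095). At Palld, which encodes an actin-binding protein, 1 intron 7 peak went from 37.9 to 11.0 counts (per the authors' deposited table -1.78 on the log2 scale, SE 0.41, adjusted p = 0.0023), a call that centring within GC deciles removed (adjusted p = 0.073). Myo10, an unconventional myosin gene, had 1 lower call, although 13 of its 20 peaks were positive. Its promoter had 73.8 counts in DMSO and 101.1 in dTAG13 and no call (adjusted p = 0.13 in the authors' deposited table). Nckap5 had 17 of 21 peaks negative, a median of -1.33 and 1 lower call. Col23a1, a transmembrane collagen gene, had 2 higher calls and 1 lower call. Ank3, the ankyrin-G gene, had no call among 25 peaks.

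**Figure D3:**
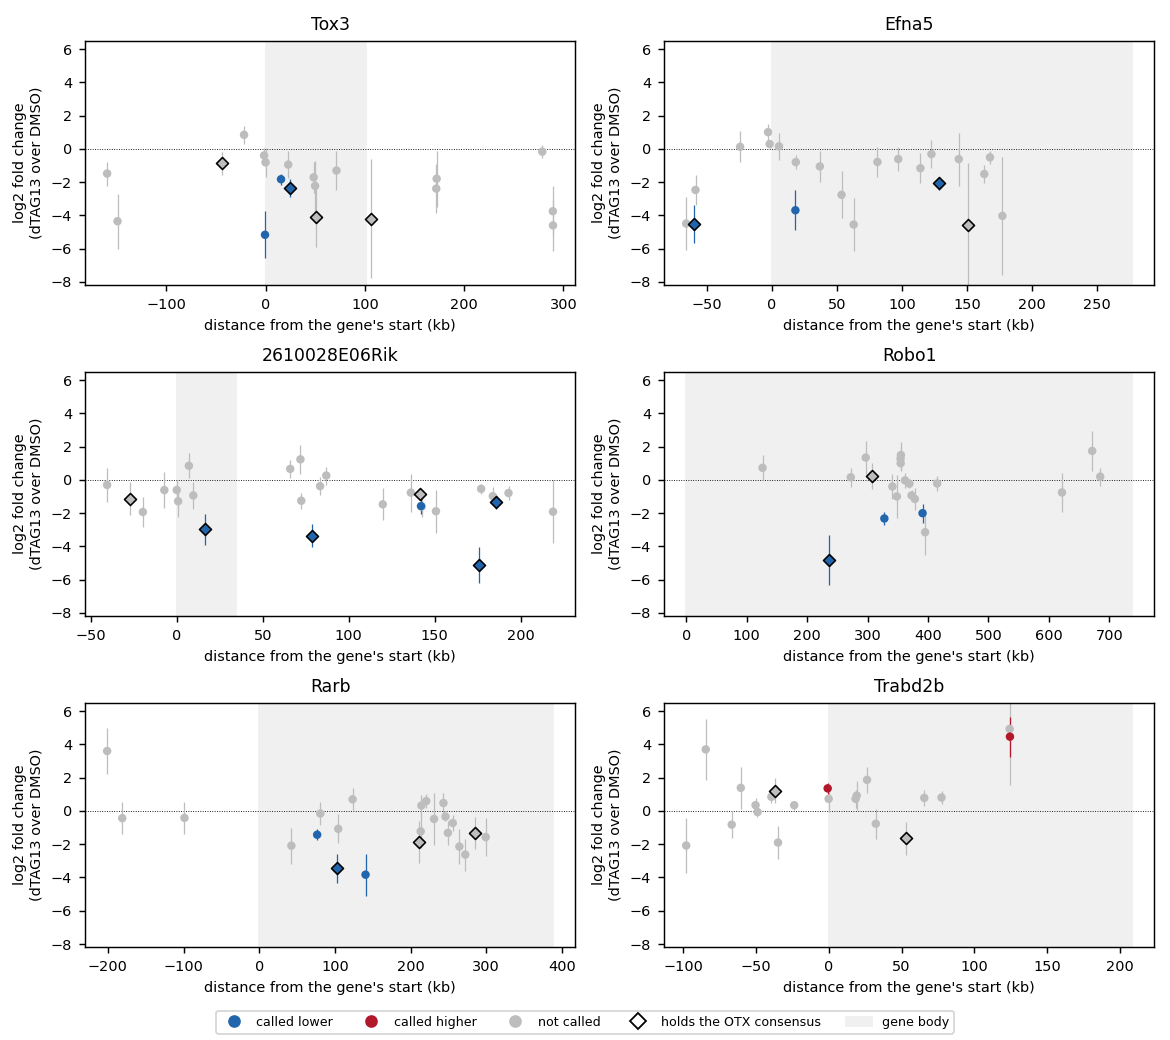
Log2 fold change (dTAG13 over DMSO) of each peak against its distance in kb from the start of the gene, in the direction of transcription, for 6 loci; bars are the authors' SE, shading is the gene body, and diamonds hold the OTX core in their central 200 bases. Called peaks at Tox3, Efna5, 2610028E06Rik, Robo1 and Rarb are all lower, and both called peaks at Trabd2b are higher. Fold changes are below 0 at 19 of 20 peaks of Tox3, 18 of 22 of Efna5, 23 of 27 of 2610028E06Rik and 18 of 23 of Rarb. The same holds for 12 of 21 peaks of Robo1 and 6 of 21 of Trabd2b.

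The OTX core was found most often in members that lost signal. It was in 108 members (12.3%, Wilson interval 10.3 to 14.7) and in 8.76% of other peaks. Within kinds of peak the shares were 12.3% against 11.7% in introns, 16.2% against 11.1% between genes and 7.89% against 5.06% at promoters. The reversed control was in 9.37% of members and 7.03% of other peaks. Among lower members the OTX core was in 26 of 50 (52.0%, interval 38.5 to 65.2), against 868 of 2572 other lower peaks (33.7%, interval 31.9 to 35.6). Among members with no call it was in 82 of 811 (10.1%). None of the 14 higher members held it, which allows a share of up to 21.5% by the Wilson interval, and 1.30% of other higher peaks did. Among called peaks the reversed control was in 24.0% of lower members and 15.9% of other lower peaks, so it too was more frequent in lower members. Promoter peaks were 4% of lower members and 16.8% of other lower peaks, and the shares by call were not split by kind of peak. The intervals cover counting over peaks only, and peaks of a locus are not independent.

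Read the other way, 26 of 103 tested members with the core were lower (25.2%) and 0 higher. Of the 751 without it 24 were lower (3.2%) and 14 higher (1.86%). Among other peaks the corresponding shares lower were 14.9% with the core and 2.73% without it. Under the 3 centrings the core was in 48.3% to 65.4% of lower members and in 32.1% to 35.9% of other lower peaks, and in 0 higher members each time. The TEAD core was in 4 of 14 higher members (28.6%), against 22.7% of other higher peaks, 13.7% of members with no call and 11.5% of all other peaks, a share from few peaks.

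**Figure D4:**
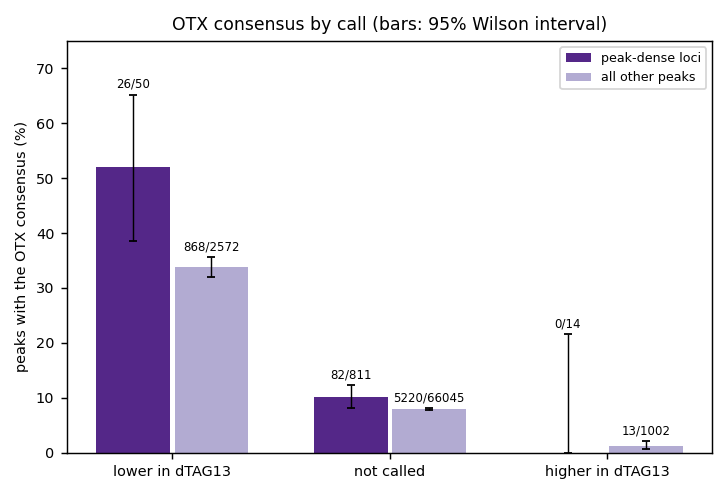
Share of peaks (%) whose central 200 bases hold the OTX core, by call, for the peak-dense loci and for all other peaks; bars are 95% Wilson intervals and the numbers give peaks with the core over all peaks of the class. The share is 52.0% in lower members and 33.7% in other lower peaks, and 0 of 14 higher members hold it. The reversed control, not drawn, is in 24.0% of lower members and 15.9% of other lower peaks.

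Fold changes of neighbouring peaks in a locus were weakly correlated over all pairs, and more strongly among close pairs and pairs with higher counts. Over 838 pairs of adjacent peaks the fold changes had a Pearson correlation of 0.13 and a Spearman rank correlation of 0.16. For the 391 pairs under 10 kb apart these were 0.33 and 0.31, and for the 447 pairs farther apart they were -0.01 and 0.03. For the 103 pairs with mean counts of at least 10 they were 0.39 and 0.39. Those 103 pairs also lay closer together, with a median gap of 6.19 kb against 11.3 kb over all pairs. The pairs share libraries, base composition and locus, so these values are descriptions. For the 58 called peaks with another call in their locus, the nearest one lay at a median distance of 62.7 kb, and within 10 kb for 10 of them. The nearest call had the same direction for 45 of these 58 peaks. Most called members were lower (50 of 64), which by itself makes like directions frequent, and the agreement that this alone gives was not computed. Peaks that are nearest to each other both enter the count, so the 58 are not separate comparisons. Opposite calls occurred within one gene, as at Pard3 and Pde4d, but their lower calls were lost after centring within GC deciles. At Dab1 2 lower calls and 1 higher call held under all 3 centrings.

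The deposited table also marks genes of the authors' expression lists as down or up. Of the 37 genes 6 were marked down (Rarb, Tenm4, Palld, Efna5, Robo1 and Tox3) and 6 up (Tbc1d22a, Ntm, Ank3, Bmper, Frmd4b and Rora), which is 16.2% each, against 1.38% and 1.60% of all genes with peaks. The peaks of the 6 genes marked down gave 15 lower and 0 higher calls among 128 tested (11.7% lower), those of the 6 marked up gave 6 lower and 1 higher among 137 (4.38% and 0.730%), and those of the other 25 gave 29 and 13 among 589 (4.92% and 2.21%). Outside the peak-dense loci 9.51% of tested peaks were lower and 0.806% higher at genes marked down, 2.61% and 2.36% at genes marked up, and 3.64% and 1.46% at genes not marked. The share of genes marked rose with the number of peaks per gene over the whole table, from 0.385% (down) and 0.638% (up) at 1 peak to 8.55% and 8.73% at 10 to 19 peaks, so the members continued a trend of all genes.

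**Figure D5:**
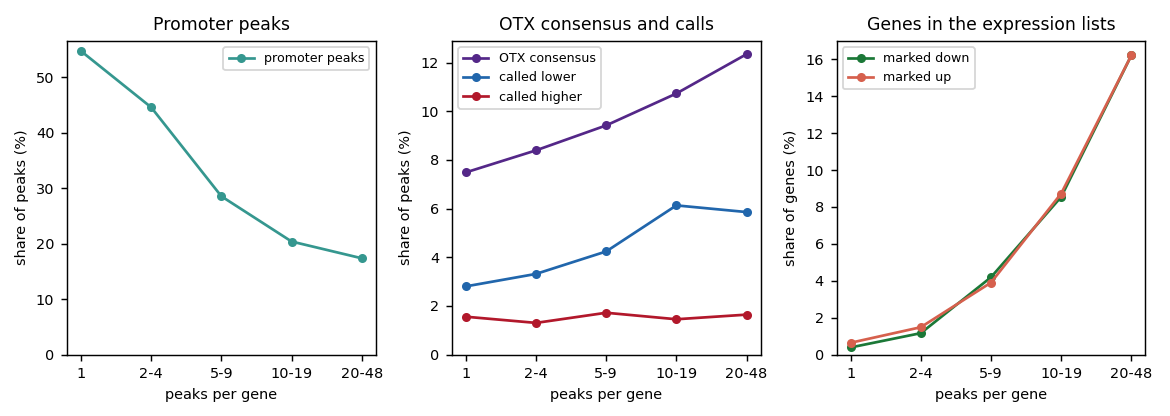
Share of promoter peaks, share of peaks with the OTX core or called lower or higher, and share of genes marked in the expression lists (all in %), by the number of peaks per gene, with the peak-dense loci as the last class (20 to 48 peaks). From 1 peak per gene to 20 or more, promoter peaks fell from 54.8% to 17.4% and the OTX core rose from 7.48% to 12.3%; lower calls were 6.13% at 10 to 19 peaks and 5.85% in the last class.

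The pathway lists held few of these genes. For comparison with the counts below, 2622 of all 69128 tested peaks were lower (3.79%) and 1016 higher (1.47%). Of 75 axon guidance and adhesion genes with peaks 4 were peak-dense (Cdh23, Efna5, Nrxn3 and Robo1), and over the whole list 34 of 569 tested peaks were lower and 6 higher. Of 59 streak and endoderm transcription factors Rarb alone was, with 20 lower and 2 higher of 309. Of 58 WNT pathway genes Prickle1 alone was, with 19 lower and 4 higher of 296. Of 62 chromatin and DNA methylation genes Jarid2 alone was, with 17 lower and 6 higher of 376. None of the 43 NODAL, activin and BMP pathway genes or the 25 NOTCH pathway genes with peaks reached 20, and their lists gave 6 lower and 2 higher of 215, and 1 lower and 0 higher of 93.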

How the data were processed

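The members and gene lists were chosen with earlier results of these data known. Per the submitters' processing notes, fastp, Bowtie2, MACS2, featureCounts, HOMER 4.11 and ChIPseeker were used on mm10; their settings are not given in the sources used here. The deposited signal is a mean of normalized counts over the libraries, per the file headers. The authors deposited log2 fold changes with standard errors, a score (fold change over SE), p-values and adjusted p-values, used as deposited, because values per library are not used here; 21 of 875 members have no adjusted p. No test of the libraries was run. Group means were computed from the mean and fold change. Motifs were searched in 100 bases on each side of a peak's midpoint on GRCm38.p6; start sites are those of GENCODE 21, where 36 of 37 names matched directly. Of the 37 loci 1 is in the counts but is not reported here by name. Loci were named by number of peaks and calls and by list, and each by its peak of smallest p; others were chosen after their values were seen. Alternatives changed the row minimum, threshold, weak-peak filter, centring, assignment and motif window. Functions, tested on simulated data, ran under Python 3.11.15 with scipy 1.17.1, pandas 2.3.3, pysam 0.24.0 and numpy 2.4.6.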

Additional observations from a re-analysis of the deposited data

How the results depend on the processing

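Lower and higher calls at the members (50 and 14) became 152 and 34 with at least 15 rows per gene (141 genes), 3 and 1 with at least 30 (2 genes), 21 and 3 at an adjusted p under 0.01, and 27 and 6 with a mean count of at least 10 (274 peaks, adjusted again). Centring on the median of all peaks gave 24 higher. Chosen after seeing the data, centring on peaks of both lists gave 9 higher, and centring within GC deciles gave 26 lower and 28 higher; the cause was not tested. Leaving out the non-coding loci, leaving out 2610028E06Rik, a fold change of at least 2, the nearest start site and a 100 kb limit kept both counts within 1.5 times. The OTX core was in 34% of lower members within 50 bases of the midpoint (other lower peaks 20.9%). It was in 56.0% over the whole peak (other lower peaks 34.8%) and in 40.0% as GGATTAG or GGATTAA (other lower peaks 24.8%). Over the whole peak 1 of the 14 higher members also held it. Adjacent peaks had the same sign in 57.8% of pairs, 61.6% under 10 kb apart and 61.2% at mean counts of at least 10. Without its strongest peak the log2 ratio of summed signal turned from 0.01 to -0.075 at Ulk4 and from 0.13 to -0.038 at Col23a1. No paired analysis was possible because values per library are not used here; for the same reason edgeR, DESeq2 and leaving out replicates were not run. Low counts limit the precision of most members, and the depth per library is unknown.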

Other observations

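Assigning each peak to the nearest GENCODE start site gave 27 genes with at least 20 peaks, 25 of them among the 37 (67.6% of the 37 and 92.6% of the 27). Rbfox1, an RNA-binding splicing regulator gene, then held 29 peaks and Sh3pxd2a, an invadopodia adaptor gene, held 20, where the authors' deposited table gives them 17 and 14, each with 2 lower calls.

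Names made only of digits were 23 in number, with 82 peaks and at most 18 rows for one name, so that leaving them out removed no locus. The columns C1 to C4 of the authors' deposited table mark classes of changed peaks. Members were 20 of 1091, 29 of 1508, 5 of 489 and 8 of 393 peaks of these classes. Since the classes hold changed peaks only, the 1.24% of all peaks that were members is not a like comparison. Among called peaks with a fold change of at least 2, members were 49 of 2599 lower and 13 of 882 higher peaks.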
